A study of Homo sapiens with 9 samples.

Results

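The 10 genes described here encode secreted signals of the TGF-beta superfamily and their inhibitors: the ligands BMP2, BMP4, BMP7, GDF3 and NODAL, the BMP antagonists GREM1, NOG and CHRD, and the NODAL inhibitors LEFTY1 and LEFTY2. They were taken by gene symbol from a table of read counts, and each symbol matched 1 of the 56312 entries. All 10 passed the filter on low counts, among 24182 genes tested.

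RNA sequencing was done on HNES1 cells, a wild-type human naive pluripotent line derived from an embryo, on day 5 of their transition out of the naive state. In the PROTAC group the cells received 2.5 µM UNC6852, which degrades EED, a scaffold subunit of Polycomb repressive complex 2 (PRC2). In the UNC group they received 1 µM UNC1999, which inhibits the catalytic subunits EZH1 and EZH2, and the DMSO group received the vehicle. All groups shared the same base medium with the tankyrase inhibitor XAV939, and treatment started the day before naive medium was withdrawn, with daily renewal. Each group had 3 libraries numbered 1 to 3, all from this single line, and the experiment was done independently 3 times. The compounds were used at different doses, so PROTAC against UNC compares those doses as well as the compounds.

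BMP ligands bind paired type I and type II serine/threonine kinase receptors, which phosphorylate SMAD1, SMAD5 and SMAD9, and ID genes are among their common targets. NODAL signals with the co-receptor CRIPTO through SMAD2 and SMAD3 together with FOXH1, and it induces LEFTY1 and LEFTY2, which feed back on it. In human pluripotent cells NODAL and activin signalling maintains NANOG, whereas BMP4 is widely used to drive differentiation towards trophoblast-like, amnion-like and mesodermal cells. PRC2 places the repressive mark H3K27me3, often at CpG-rich promoters of developmental genes. The histone mark and protein levels were not analysed here.

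The libraries held 31648689 to 101073148 counted reads. Libraries numbered 1 stood apart from the rest on the first principal component (26.6% of variance), and PROTAC 3 and UNC 2 stood at opposite ends of the second (18.5%). Mitochondrial transcripts took 3.21% to 5.12% of counts. EED was at 12.4 ± 0.342 CPM (counts scaled to library size) in PROTAC, 12.1 ± 0.758 in UNC and 11.7 ± 0.729 in DMSO, and EZH2 at 49.1 ± 3.15, 53.2 ± 6.28 and 44.7 ± 3.97 CPM in the same order (SD, n = 3 each). The degrader acts on protein, so the EED transcript is no check of it. The general pluripotency markers POU5F1, NANOG, SOX2, LIN28A, SALL4 and PRDM14 were all above 1 CPM, with summed levels of 3323 to 3497 CPM in PROTAC, 3252 to 3721 in UNC and 3086 to 3375 in DMSO. Naive markers summed to 1491 to 1555 CPM in PROTAC, 1318 to 1547 in UNC and 1405 to 1573 in DMSO. Primed markers summed to 809 to 989, 760 to 902 and 826 to 907 CPM in the same order. In UNC 1 of 8 primed markers rose and 4 fell in the paired fit described below, and 1 fell by group. Of 8 naive markers 2 rose and 0 fell in UNC in the paired fit, in which 13.5% of all genes were called. In PROTAC 2 of 8 naive markers also rose and 0 fell in that fit, and 0 of 8 primed markers rose and 1 fell (3.02% of all genes called). Of the 6 general markers 3 rose in UNC and 1 in PROTAC with pairing, and 0 fell in either. By group 0 naive and 0 general markers were called in either treatment. Being bulk RNA, these data cannot tell fewer cells of a type apart from less RNA per cell.

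Each comparison was tested with edgeR's quasi-likelihood test across all genes at an adjusted p of 0.05, by group alone and in a paired fit that holds the replicate number as a block. Libraries of the same number deviated together, so the paired values stand beside results they change. All adjusted p-values of single genes are from this test.

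The promoters of 5 of the 10 genes (BMP4, GDF3, NODAL, GREM1 and CHRD) had an entry in the RefSeq set used, which gives 250 bases before and 50 after a start on GRCh38.p14. Those of GREM1 and BMP4 are shown because these genes moved in opposite directions under UNC1999, and that of GDF3 because it is the highest-expressed gene of the set. CpG dinucleotides are in capitals. The GREM1 stretch is chr15:32717754-32718053 on the plus strand, the BMP4 stretch is the most upstream of its 3 starts at chr14:53955001-53955300 on the minus strand, and the GDF3 stretch is chr12:7695726-7696025 on the minus strand.
GREM1: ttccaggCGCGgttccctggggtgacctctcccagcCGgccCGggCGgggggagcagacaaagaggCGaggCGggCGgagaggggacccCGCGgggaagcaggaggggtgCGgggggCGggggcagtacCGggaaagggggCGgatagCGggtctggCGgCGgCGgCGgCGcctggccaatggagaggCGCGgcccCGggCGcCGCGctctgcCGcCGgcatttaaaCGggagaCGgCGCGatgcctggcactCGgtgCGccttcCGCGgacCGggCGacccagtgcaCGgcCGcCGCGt
BMP4: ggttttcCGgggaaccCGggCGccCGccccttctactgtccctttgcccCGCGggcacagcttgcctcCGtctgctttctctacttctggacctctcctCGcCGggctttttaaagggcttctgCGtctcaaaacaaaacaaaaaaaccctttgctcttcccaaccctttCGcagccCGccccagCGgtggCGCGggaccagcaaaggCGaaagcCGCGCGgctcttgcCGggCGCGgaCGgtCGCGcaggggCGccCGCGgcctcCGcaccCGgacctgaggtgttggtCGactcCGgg
GDF3: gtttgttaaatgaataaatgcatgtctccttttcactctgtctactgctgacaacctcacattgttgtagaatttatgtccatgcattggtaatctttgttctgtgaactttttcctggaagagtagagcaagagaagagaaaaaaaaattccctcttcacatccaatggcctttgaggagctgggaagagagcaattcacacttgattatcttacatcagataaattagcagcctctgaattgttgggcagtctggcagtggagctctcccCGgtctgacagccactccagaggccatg

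The GREM1 promoter held 42 CpG, more than 94.15% of 35116 RefSeq promoters, and the second GREM1 start held 31. The 3 BMP4 starts held 32, 23 and 30 CpG, and the CHRD promoter held 36. NODAL had 11 CpG and GDF3 had 1, against a median of 14 over all promoters. Of 4 motifs searched on both strands, none overlapping another, the GC-rich SMAD site GGCGCC was present in the shown GREM1 and BMP4 stretches and in CHRD, as in 19.22% of all promoters. The palindromic SMAD3 and SMAD4 site GTCTAGAC (0.2022% of all promoters), the FOXH1 site AATCCACA (0.8173%) and the TATA box TATAAA (11.53%) were in none of the members' windows. Of the genes with a promoter entry that rose under UNC1999 in the paired fit, BMP4 had 32 CpG in the stretch shown, NODAL 11 and GDF3 1. NODAL and GDF3 did not pass by group. The part of promoter CpG in these changes was not tested.

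Divided by the exon length of each gene in GENCODE 29, the levels spanned a wide range. GDF3, a NODAL-related ligand of pluripotent cells, averaged 309 CPM per kilobase over the 9 libraries, and NODAL averaged 29.3, each apart from all others in every library. LEFTY1 at 6.57, BMP7 at 6.37 and BMP4 at 4.18 CPM per kilobase followed, and their ranges over libraries overlapped. LEFTY2 averaged 1.62 and NOG 0.331 CPM per kilobase, each apart from its neighbours. CHRD at 0.139, GREM1 at 0.0945 and BMP2 at 0.0925 CPM per kilobase were lowest and overlapped one another. The place of GREM1 depends on its exon length of 14606 bases, and the annotation used for counting is not known. Before division GREM1 averaged 1.38 CPM, against 0.923 for CHRD, 0.626 for NOG and 0.333 for BMP2. Thus the 3 BMP antagonists and BMP2 were low, while GDF3, NODAL, BMP7, BMP4 and LEFTY1 carried most of the expression.

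**Figure D1:**
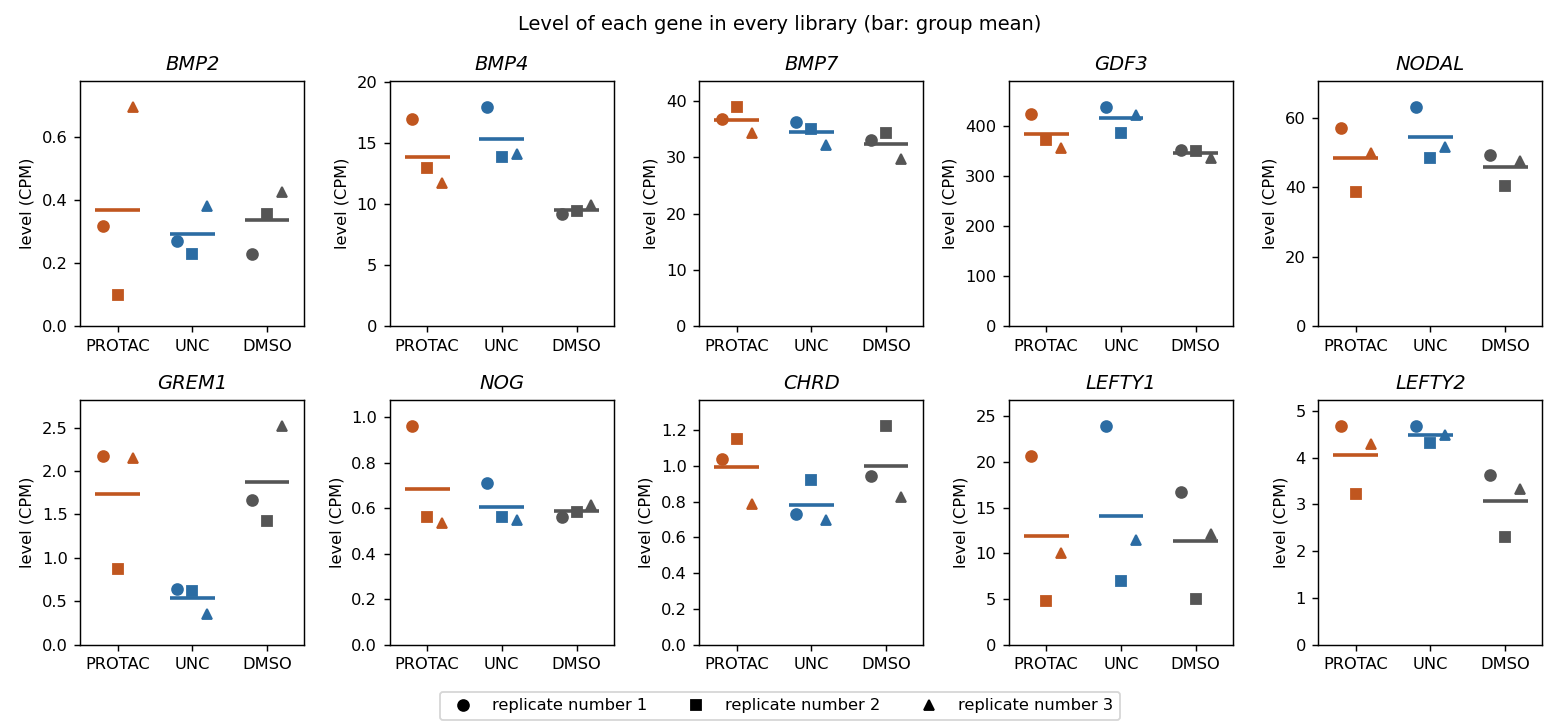
Level of each of the 10 genes in CPM (y axis, from 0, own scale for each gene) in PROTAC, UNC and DMSO libraries; each point is 1 library, its shape gives the replicate number, and bars are group means (n = 3). BMP4 is higher in every PROTAC and UNC library than in any DMSO library, GREM1 is lower in every UNC library than in any other, and LEFTY1 follows the replicate number.

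BMP4, the BMP ligand most used to direct early human differentiation, was higher under both compounds. It lies on chromosome 14, 53949736 to 53958761, minus strand, GRCh38. Its level was 16.9, 13.0 and 11.7 CPM in PROTAC 1 to 3 and 17.9, 13.9 and 14.1 CPM in UNC 1 to 3, against 9.19, 9.41 and 9.90 CPM in DMSO 1 to 3. No treated library overlapped a DMSO library, and libraries of number 1 were highest in both treated groups. The means were 13.9 ± 2.72 CPM in PROTAC, 15.3 ± 2.27 in UNC and 9.50 ± 0.362 in DMSO (SD, n = 3 each). By group the UNC estimate was 0.69 log2 units (SE 0.143, adjusted p = 0.0468) and with pairing it was 0.68 (SE 0.0916, adjusted p = 1.63e-06). In PROTAC it was 0.56 (SE 0.143, adjusted p = 0.938) by group and rose past the threshold in the paired fit (0.55, SE 0.0926, adjusted p = 0.000486). The call by group in UNC is close to the threshold and was lost when any single library other than PROTAC 1 was left out (log2 fold change 0.54 to 0.78 over all alternatives by group). In the paired fit BMP4 passed in 18 of 18 settings in UNC and in 18 of 18 in PROTAC (adjusted p up to 0.0485 there).

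BMP7, a ligand that pairs with BMP2 or BMP4 as a heterodimer, was the highest of the 3 BMPs per kilobase. It was at 36.8, 38.9 and 34.3 CPM in PROTAC and 36.2, 35.0 and 32.3 CPM in UNC, against 33.0, 34.3 and 29.7 CPM in DMSO. The groups overlapped, although all 3 pairs were higher in each treatment. The paired log2 fold changes were 0.18 in PROTAC (adjusted p = 0.0934) and 0.10 in UNC (adjusted p = 0.328), and neither passed. BMP2, a close relative of BMP4, stayed under 1 CPM in all libraries, at 0.317, 0.0980 and 0.694 CPM in PROTAC and 0.269, 0.230 and 0.381 CPM in UNC, against 0.228, 0.357 and 0.424 CPM in DMSO. With 189 BMP2 reads in all 9 libraries, the paired 95% interval ran from -0.99 to 0.78 in PROTAC and from -1.16 to 0.62 in UNC.

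GREM1 (gremlin 1), which binds BMP2 and BMP4 and keeps them from their receptors, was lower under UNC1999, and its values under UNC6852 overlapped those of the vehicle. It lies on chromosome 15, 32718004 to 32745106, plus strand. Its level was 2.18, 0.868 and 2.15 CPM in PROTAC and 0.645, 0.612 and 0.356 CPM in UNC, against 1.67, 1.43 and 2.52 CPM in DMSO. These levels rest on 206, 62 and 68 reads in PROTAC, 67, 24 and 28 in UNC, and 110, 120 and 107 in DMSO. Every UNC library was below every other library, and PROTAC overlapped DMSO. The group means were 1.73 ± 0.747 CPM in PROTAC, 0.538 ± 0.158 in UNC and 1.87 ± 0.576 in DMSO (SD, n = 3 each). In UNC the log2 fold change was -1.79 by group, just short of the threshold (SE 0.375, adjusted p = 0.0523), and in the paired fit GREM1 fell by 1.85 (SE 0.280, adjusted p = 6.05e-05). The paired log2 ratios in UNC were -1.37, -1.22 and -2.82 for numbers 1 to 3. The paired call held in 18 of 18 settings (-2.15 to -1.38). In PROTAC the paired log2 fold change was -0.15 (adjusted p = 0.835), with a 95% interval of -0.66 to 0.35.

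The difference between the compounds was itself tested. GREM1 was higher in PROTAC than in UNC by 1.69 log2 units with pairing (SE 0.281, adjusted p = 0.000582, higher in 3 of 3 pairs), and by 1.68 by group (SE 0.376, adjusted p = 0.265). BMP4 differed between PROTAC and UNC by -0.14 in the paired fit (adjusted p = 0.579), with a 95% interval of -0.32 to 0.05. PROTAC against DMSO and UNC against DMSO share the DMSO libraries.

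Fibroblast markers moved in both directions under UNC1999, while GREM1 was lower. The summed level of the 10 fibroblast markers was 470 to 501 CPM in PROTAC, 391 to 441 in UNC and 485 to 511 in DMSO. THY1, which is also in the list of primed pluripotency markers, averaged 203, 210 and 188 CPM of it in the same order. Of 7 tested in UNC against DMSO, 2 rose and 4 fell in the paired fit, in which 13.5% of all genes were called. COL1A1 fell by 0.96 and TAGLN fell by 1.17, and both also passed by group (adjusted p = 0.0372 and 0.00668). TWIST1, a mesenchymal transcription factor, rose by 0.83 with pairing and did not pass by group (adjusted p = 0.120); it was chosen after its values were seen. The part of these markers in the GREM1 result was not tested. LUM had no read in any library, and DCN and COL3A1 stayed near 0, at up to 0.0289 and 0.0420 CPM.

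The other BMP antagonists did not pass in any comparison. NOG (noggin), a high-affinity binder of BMP4, was at 0.962, 0.560 and 0.536 CPM in PROTAC and 0.712, 0.561 and 0.547 CPM in UNC, against 0.561, 0.582 and 0.613 CPM in DMSO. CHRD (chordin) was at 1.04, 1.15 and 0.789 CPM in PROTAC and 0.731, 0.918 and 0.699 CPM in UNC, against 0.940, 1.22 and 0.825 CPM in DMSO. All groups overlapped for both genes. The paired log2 fold change of CHRD in UNC was -0.35, with a 95% interval of -0.81 to 0.12, and it was lower in 3 of 3 pairs. For NOG in UNC it was 0.04, with an interval of -0.53 to 0.61.

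BMP4 reads per GREM1 read put both genes on one within-library scale. There were 7.78, 15.0 and 5.47 BMP4 reads per GREM1 read in PROTAC 1 to 3 and 27.8, 22.7 and 39.7 in UNC 1 to 3, against 5.51, 6.60 and 3.93 in DMSO 1 to 3. The means were 9.40 ± 4.94 in PROTAC, 30.05 ± 8.73 in UNC and 5.34 ± 1.34 in DMSO (SD, n = 3 each). All UNC libraries lay above all others, and PROTAC overlapped DMSO. That UNC lay above DMSO follows from BMP4 and GREM1 each not overlapping DMSO, in opposite directions, and adds no further result. The ratio is of reads, not of molecules, since the exon length of GREM1 in GENCODE 29 is 14606 bases against 3082 for BMP4.

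**Figure D2:**
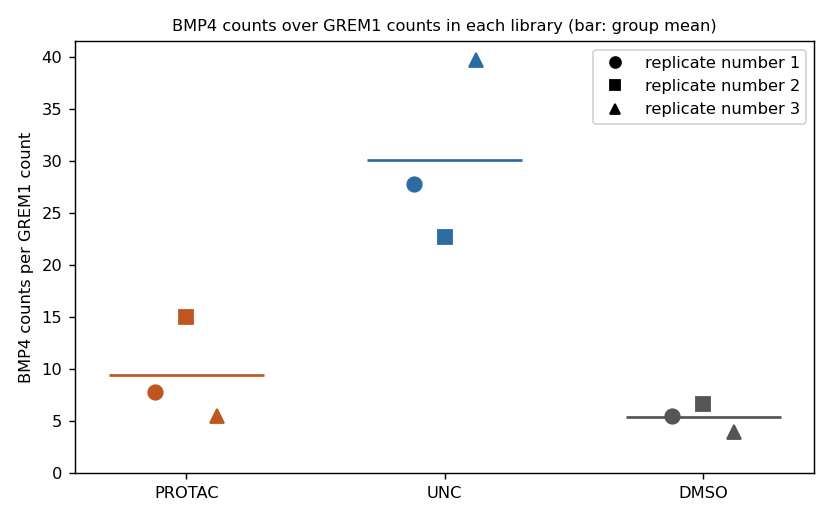
BMP4 counts divided by GREM1 counts (y axis, a ratio of reads, from 0) in each PROTAC, UNC and DMSO library; shapes give the replicate number and bars the group means (n = 3). The UNC libraries lie between 22.7 and 39.7, above the PROTAC libraries (5.47 to 15.0) and the DMSO libraries (3.93 to 6.60).

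GDF3, the highest of the set per kilobase, was at 426, 373 and 357 CPM in PROTAC and 438, 388 and 423 CPM in UNC, against 352, 351 and 337 CPM in DMSO. Each treated library was above every DMSO library, by a small margin in PROTAC. In UNC GDF3 rose with pairing, by a paired estimate of 0.26 log2 units (SE 0.0536, adjusted p = 0.000583), where the value by group was 0.27 (adjusted p = 0.159). In PROTAC the paired value was 0.15 (adjusted p = 0.125).

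NODAL was at 56.9, 38.6 and 49.8 CPM in PROTAC and 63.0, 48.3 and 51.7 CPM in UNC, against 49.4, 40.5 and 47.6 CPM in DMSO. The groups overlapped, and number 2 was lowest in every group. With pairing NODAL rose in UNC, at 0.24 (SE 0.0598, adjusted p = 0.00465, 3 of 3 pairs), while the value by group was 0.25 (adjusted p = 0.514). That call was lost without UNC 1, UNC 2 or DMSO 1, or without all libraries of number 2 (adjusted p up to 0.0960). In PROTAC the paired value was 0.07, with a 95% interval of -0.05 to 0.19.

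LEFTY2 was at 4.68, 3.22 and 4.29 CPM in PROTAC and 4.68, 4.31 and 4.49 CPM in UNC, against 3.62, 2.29 and 3.32 CPM in DMSO. All UNC libraries were above all DMSO libraries, and PROTAC 2 lay inside the DMSO range. With pairing LEFTY2 rose in UNC, at 0.55 (SE 0.130, adjusted p = 0.00294), against 0.55 by group (adjusted p = 0.237). The call was lost without UNC 2 or without number 2 (adjusted p up to 0.133). In PROTAC the paired value was 0.41 (adjusted p = 0.0813).

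LEFTY1 varied more with the replicate number than with treatment. It was at 20.7, 4.80 and 10.0 CPM in PROTAC and 24.0, 7.01 and 11.4 CPM in UNC, against 16.8, 5.04 and 12.1 CPM in DMSO. In each group number 1 was highest and number 2 lowest. LEFTY1 in UNC was called in the paired fit (0.30, SE 0.101, adjusted p = 0.0499, 2 of 3 pairs), at the edge of the threshold. The call was lost in 11 of the 18 paired settings, with a value of 0.16 without number 1 and 0.13 without DMSO 1.

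Libraries of number 1 were then set against those of numbers 2 and 3 in the paired fit, in which the term for treatment stays. LEFTY1 was 1.38 log2 units higher in number 1 (SE 0.0823, adjusted p = 5.22e-12), rank 4 of 24182 genes by p. NODAL (0.30, adjusted p = 3.32e-05), BMP4 (0.26, adjusted p = 0.00964) and GDF3 (0.12, adjusted p = 0.0440) were higher too, so 4 of 10 members were called higher and 0 lower. The fit averages over the groups, and BMP4 was highest in number 1 only in the treated groups. In DMSO 1 to 3 BMP4 was at 9.19, 9.41 and 9.90 CPM, and GDF3 at 352, 351 and 337 CPM. Of all genes tested 28.1% were called, 15% higher and 13.1% lower. Of 11 tested NODAL and activin target genes 6 were higher and 0 lower, among them the inhibitory SMAD7 (0.51) and SKIL (0.39). This contrast treats libraries that share a number as separate replicates, so its p-values do not measure the spread between numbers. The labels do not say what the number stands for beyond a replicate.

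**Figure D3:**
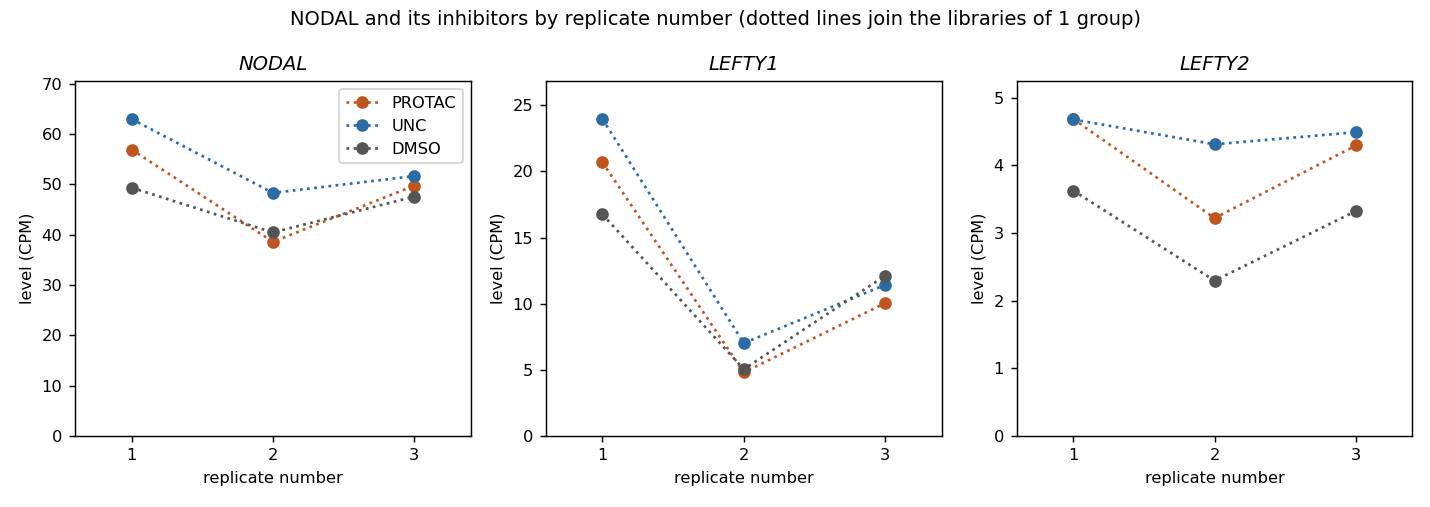
Levels of NODAL, LEFTY1 and LEFTY2 in CPM (y axis, from 0) against the replicate number (x axis); each point is 1 library, and dotted lines join libraries of PROTAC, UNC or DMSO as a guide, not as an order. LEFTY1 runs from 16.8 to 24.0 CPM in number 1 and from 4.80 to 7.01 CPM in number 2.

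LEFTY1 and LEFTY2 lie near each other on chromosome 1 and are near copies, so their reads may be shared. Coding sequences of LEFTY1-201 and LEFTY2-201 in GENCODE 29 are 1101 bases each and differ at 31 positions (97.18% identity), and 265 of 1002 windows of 100 bases were the same in both.

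The ratio of LEFTY1 to LEFTY2 reads was 4.42, 1.49 and 2.34 in PROTAC and 5.13, 1.63 and 2.54 in UNC, against 4.62, 2.197 and 3.65 in DMSO. It was highest in number 1 and lowest in number 2 in each group. LEFTY1 also overlaps another entry of the count table on its own strand, with 12242 reads over all libraries against 8325 for LEFTY1. LEFTY2 likewise overlaps a same-strand entry, with 346 reads against 2390 for LEFTY2. Whether the counting shared reads between these entries and the genes was not tested, and the ratio carries that limit for both copies. The opposite-strand entries that overlap BMP4, NODAL and GREM1 held 48, 149 and 2 reads, against 8238, 30906 and 792 for those genes.

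Taking the 10 genes as a set, 0 were called in PROTAC by group (0% of all genes called, in edgeR; BMP4 alone had an unadjusted p under 0.05, DESeq2 called 0) and 1, BMP4, in the paired fit (3.02% of all genes called, 2.03% higher). In UNC 1 was called by group, BMP4 (0.72% of all genes called, 0.318% higher), and in the paired fit 5 were higher and 1 lower, where 13.5% of all genes were called, 7.05% higher and 6.46% lower. In PROTAC against UNC 0 were called by group (0.00827% of all genes called, in edgeR; GREM1 alone had an unadjusted p under 0.05, DESeq2 called 1) and 1, GREM1, in the paired fit (2.9%, 2.16% higher). Libraries did not overlap for 2 members in PROTAC against DMSO (11.5% of all genes), 4 in UNC against DMSO (17.4%) and 1 in PROTAC against UNC (9.08%). The median paired log2 fold change of the 10 was 0.11 in PROTAC and 0.17 in UNC, against a median of -0.01 over all genes in each.

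**Figure D4:**
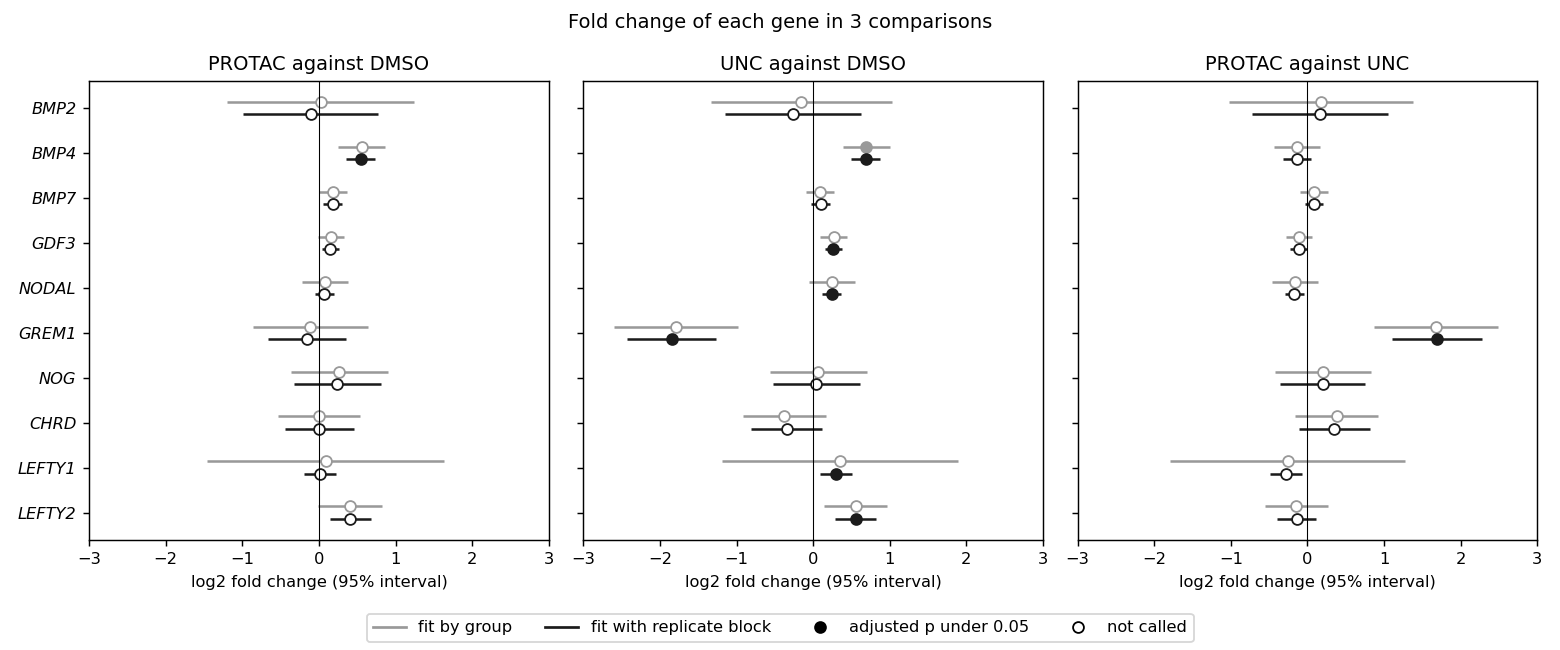
Log2 fold changes of the 10 genes (x axis) with 95% intervals in PROTAC against DMSO, UNC against DMSO and PROTAC against UNC, by group (grey) and in the paired fit (black); filled points passed an adjusted p of 0.05. BMP4 is above 0 in both treatments, and GREM1 is at -1.85 in UNC and at 1.69 in PROTAC against UNC in the paired fit.

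Of 9 other BMP and GDF ligands tested, 1 rose and 2 fell in UNC in the paired fit, in which 13.5% of all genes were called: GDF11 rose by 0.30, and GDF7, known for dorsal neural patterning, fell by 1.06 and GDF1, a partner of NODAL in vertebrate embryos, fell by 0.31. By group these 3 did not pass, with adjusted p-values of 0.246 for GDF11, 0.0795 for GDF7 and 0.155 for GDF1. GDF7 was higher in PROTAC than in UNC by 0.99 in the paired fit (adjusted p = 0.00191) and was not called by group. None of 7 activin and TGF-beta ligands passed in any of these comparisons in the paired fit.

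Among 15 other extracellular modulators, 2 rose in PROTAC and 3 rose and 1 fell in UNC in the paired fit. In that fit 3.02% of all genes were called in PROTAC and 13.5% in UNC. LTBP1, which binds latent TGF-beta, rose in both, by 0.37 in PROTAC and 0.45 in UNC, as did the follistatin-like FSTL1, by 0.21 and 0.28 in the same order. TWSG1, a BMP modulator that acts with chordin, rose in UNC by 0.27. By group 0 of the 15 were called in either treatment.

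Of 17 receptors and co-receptors, 2 rose in PROTAC and 5 rose and 1 fell in UNC. The shares of all genes called in the paired fit were 3.02% in PROTAC and 13.5% in UNC. The type II receptor ACVR2A rose by 0.33 in PROTAC and 0.44 in UNC, and the BMP co-receptor RGMA by 0.25 and 0.30 in the same order. The type I receptor ACVR1 rose in UNC by 0.37 and was lower in PROTAC than in UNC by 0.25 (log2 fold change -0.25, adjusted p = 0.0106). Endoglin (ENG), a co-receptor, fell by 0.56 in UNC. Of 16 SMADs and regulators 3 rose and 2 fell in UNC, and none passed in PROTAC. The BMP mediators SMAD1 and SMAD5 rose by 0.29 and 0.16, while SMAD3, a NODAL and activin mediator, fell by 0.20 and the corepressor SKI fell by 0.18. Each of these calls was made in the paired fit and none by group.

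Of 16 BMP target genes tested, 1 rose and 6 fell in UNC in the paired fit, with a median of -0.37, and 0 rose and 1 fell in PROTAC, with a median of -0.05. Of all genes, 13.5% were called in UNC and 3.02% in PROTAC in that fit. By group 1 of the 16, GATA3, passed in UNC. GATA3, a regulator of trophoblast and amnion, was at 1.32, 1.74 and 2.02 CPM in PROTAC and 0.471, 1.02 and 1.00 CPM in UNC, against 1.76, 2.94 and 2.17 CPM in DMSO. Its UNC libraries did not overlap those of DMSO, and it fell by 1.52 in the paired fit (adjusted p = 8.67e-07) and fell by 1.503 by group (adjusted p = 0.0465). In UNC GATA2 fell by 1.08, TBX3 fell by 0.62 and MSX2 fell by 0.52 in the paired fit, and by group their adjusted p-values were 0.237, 0.248 and 0.199 in that order. In PROTAC TBX3 fell by 0.60 (adjusted p = 0.0107).

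Of the 4 ID genes, close readouts of BMP receptor activity, ID3 fell, ID4 rose and ID1 and ID2 did not pass in UNC in the paired fit. By group ID3 and ID4 did not pass (adjusted p = 0.160 and 0.263). ID3 was at 41.2, 39.4 and 29.9 CPM in PROTAC and 28.7, 27.1 and 21.3 CPM in UNC, against 42.1, 37.6 and 30.0 CPM in DMSO. In UNC it fell by 0.51 in the paired fit (adjusted p = 1.23e-07) and was higher in PROTAC than in UNC by 0.52 (adjusted p = 1.97e-07). ID4 rose in UNC by 0.45 (adjusted p = 0.0148), ID1 had a value of 0.15 (adjusted p = 0.0724), and ID2 one of -0.14 (adjusted p = 0.664). ID4, ID1 and ID2 were chosen after their values were seen. In PROTAC against UNC 4 of the 16 targets were higher and 0 lower in the paired fit (2.16% of all genes higher), and 0 were called by group. GATA3 was at 1.07 and GATA2 at 1.03.

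Of 11 NODAL and activin target genes 1 rose and 3 fell in UNC in the paired fit, and none passed in PROTAC. In that fit 13.5% of all genes were called in UNC and 3.02% in PROTAC. The mesoderm factor TBXT was at 5.11, 2.13 and 2.84 CPM in PROTAC and 2.21, 1.33 and 1.35 CPM in UNC, against 5.07, 4.43 and 6.98 CPM in DMSO. In UNC it fell by 1.79 in the paired fit (adjusted p = 0.000165) and fell by 1.72 by group (adjusted p = 0.0372). TBXT was higher in PROTAC than in UNC by 1.05 in the paired fit (adjusted p = 0.0288), and the libraries of these groups overlapped. By group 0 of the 11 targets passed in PROTAC against UNC. In UNC the changes of GSC and CRIPTO were called in the paired fit and not by group. The organiser gene GSC fell by 1.00 in UNC. CRIPTO, the NODAL co-receptor, rose in UNC by 0.23, with levels of 1029, 984 and 987 CPM in UNC against 863, 859 and 839 CPM in DMSO. NANOG and FOXH1 did not pass in any of these comparisons.

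**Figure D5:**
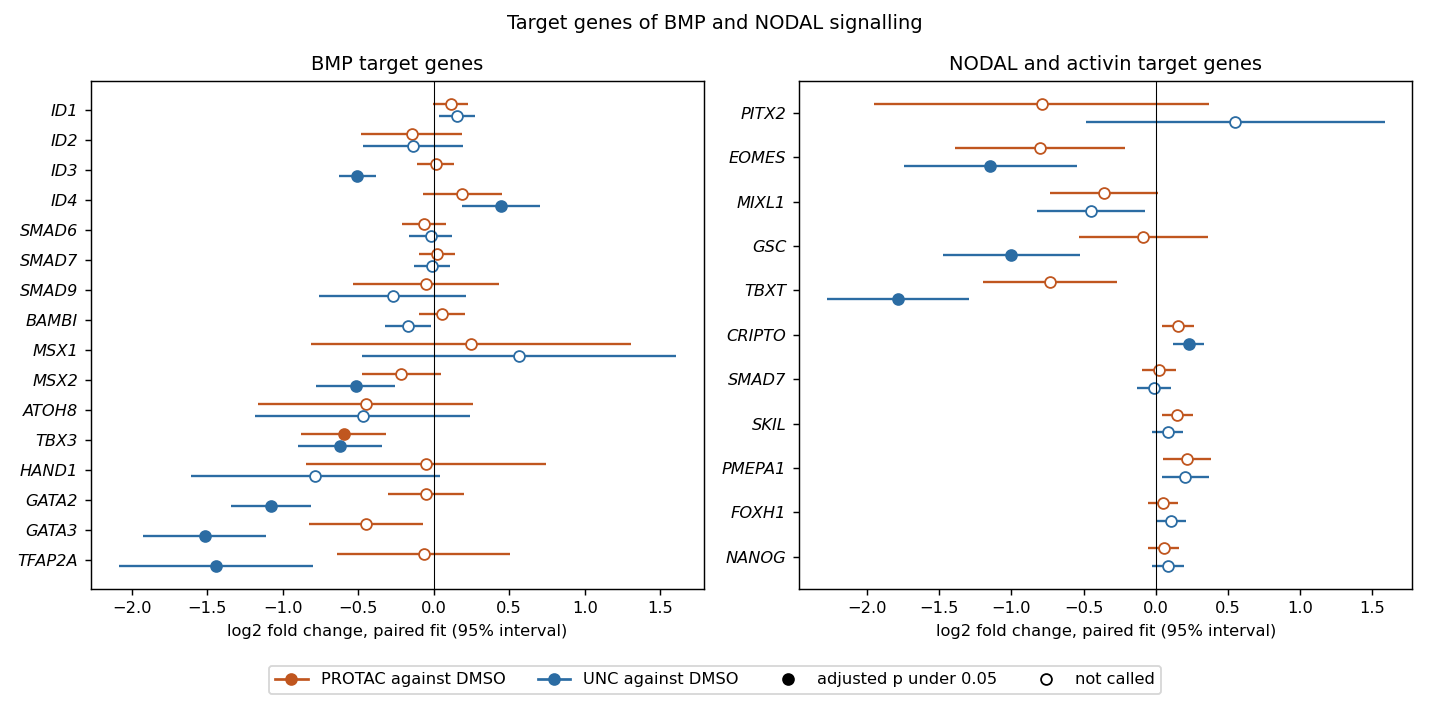
Paired log2 fold changes (x axis) with 95% intervals of the tested BMP target genes (left) and NODAL and activin target genes (right) in PROTAC against DMSO and UNC against DMSO; filled points passed an adjusted p of 0.05. In UNC 6 BMP targets fell and 1 rose, and 3 NODAL targets fell and 1 rose, while TBX3 alone passed in PROTAC.

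Several of these targets are also markers of other cell types. Summed trophoblast markers, which include GATA2 and GATA3, were at 16.4 to 51.3 CPM in PROTAC, 11.2 to 32.5 in UNC and 21.6 to 55.2 in DMSO, and 6 of 9 tested fell in UNC in the paired fit. Amnion markers summed to 28.95 to 38.1 CPM in PROTAC, 22.6 to 27.9 in UNC and 31.3 to 36.7 in DMSO, with 3 of 7 lower in UNC. Primitive streak and mesoderm markers, which include TBXT and GSC, summed to 5.56 to 10.8 CPM in PROTAC, 4.56 to 5.96 in UNC and 9.12 to 12.4 in DMSO, with 3 of 6 lower in UNC. Endoderm markers summed to 9.47 to 12.6 CPM in PROTAC, 10.9 to 15.98 in UNC and 8.01 to 13.999 in DMSO. Of 5 tested in UNC, 1 rose and 1 fell in the paired fit, and 1, HNF4A, rose by group (0.9998, adjusted p = 0.0481). HNF4A was at 4.92, 6.07 and 7.97 CPM in UNC against 2.50, 3.52 and 3.46 CPM in DMSO. It was chosen after its values were seen. For comparison, 6.46% of all genes were called lower and 7.05% higher in UNC in the paired fit. The part of such cells in the changes of BMP and NODAL targets was not tested.

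Genes whose log2 CPM followed a member most closely over the 9 libraries were picked from 14530 genes by Pearson's r, as a description only, since the libraries share groups and replicate numbers. For BMP4 they were the linker histone gene H1-3 (r = 0.977), SMAD1 (0.973) and ARFGEF3 (0.972). For GREM1 they were SAMD4A (0.987), CACNG4 (0.975) and PLAT (0.962), the tissue plasminogen activator. For NODAL they were QTRT2 (0.988), DZIP3 (0.972) and ARMCX2 (0.970). Within the set, BMP4 followed GDF3 (0.931), and NODAL followed LEFTY1 (0.917) and LEFTY2 (0.811).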

How the data were processed

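Wild-type HNES1 cells on day 5 (9 libraries, 3 each of PROTAC, UNC and DMSO by title) were sequenced after ribosomal RNA depletion per the labels' protocols, although the molecule field reads polyA RNA. Trim Galore 0.6.10 and HISAT2 2.2.1 on GRCh38 were used per the submitters' processing notes; how reads were counted (tool, annotation, strand) is not given in the sources used here, so overlapping genes cannot be told apart. The authors deposited whole-number read counts per gene, not normalized; 5 of 56312 entries had no identifier (0.00893% of counts) and were left out.

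For testing, edgeR 4.0.16 (R 4.3.3) was used, with its default filter on expression, TMM factors and a robust quasi-likelihood fit of all 9 libraries by group. Tests were two-sided, with Benjamini-Hochberg adjustment over 24182 genes at 0.05. CPM use TMM-scaled library sizes. The paired fit adds the replicate number as a block. Correlations of deviations from group means were 0.106 to 0.472 for the 9 same-number pairs and -0.324 to 0.0748 for the 18 others. Deviations cancel out within each group, so the values of the 18 others are not independent of those of the 9. All same-number pairs passed the threshold of 0.1, the lowest of them narrowly, so the numbers were treated as pairs. The biological coefficient of variation came to 13.2% by group and 6.09% paired. Replicates differed beyond counting noise (chi-square over degrees of freedom 10.5 to 34.4). Counting error is smallest in the deepest libraries (31648689 to 101073148 reads).

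The members and lists were chosen with earlier results of these data known. Named genes were all members, up to 4 per pathway list and comparison (called in either fit, 1 CPM or more in a group, largest change first) and the 3 most correlated genes of BMP4, GREM1 and NODAL. Other settings tried were DESeq2 1.42.0 and limma-voom (limma 3.58.1), scaling by library size, RLE or the upper quartile, other filters, fewer libraries and the paired fit. The contrast of number 1 against the other numbers was added after the data were seen. The tests were also run on simulated counts with an effect of the replicate number built in. Such counts cannot check whether the real numbers are pairs.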

Additional observations from a re-analysis of the deposited data

How the results depend on the processing

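Under the replicate block, 730 genes passed in PROTAC against DMSO, 3266 in UNC against DMSO and 701 in PROTAC against UNC, where the fit by group gave 0, 174 and 2; the members called were 1, 6 and 1, against 0, 1 and 0. The block changed no other call among the members. Within the block, the counts for PROTAC against DMSO were 776 with RLE scaling, 539 with library size only, 572 with upper-quartile scaling, 860 with DESeq2 and 1033 with limma-voom, with 1 member called (2 with limma-voom). For UNC against DMSO they were 3376, 3079, 3129, 3062 and 3811 in the same order, with 6, 5, 5, 5 and 6 members. For PROTAC against UNC they were 702, 684, 673, 625 and 1010, with 1 member each. These block fits with upper-quartile scaling, DESeq2 and limma-voom, and those without a single library, were chosen after seeing the data. By group, DESeq2 called 23 genes in PROTAC against DMSO, 802 in UNC against DMSO (3 members) and 127 in PROTAC against UNC (1 member), and without a filter on low counts 72 (1 member), 832 (2 members) and 244 (1 member) passed. In UNC against DMSO, upper-quartile scaling, library size only, limma-voom and a filter at 1 CPM in 3 libraries left 0 members called, and the 6 libraries alone gave 73 genes. In PROTAC against UNC, RLE scaling, limma-voom and the filter at 1 CPM gave 1 gene and the 6 libraries alone 0. The cause of these shifts was not tested.

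Leaving out 1 library or 1 replicate number gave 0 to 643 genes and 0 to 1 members in PROTAC against DMSO, 0 to 3798 genes and 0 to 6 members in UNC against DMSO, and 0 to 922 genes and 0 to 1 members in PROTAC against UNC, paired fits included. In the paired fit of UNC against DMSO 3 members were left without number 2 or UNC 2, and 4 without UNC 1 or DMSO 1. Over the same leave-outs, log2 fold changes that were not called ran, in PROTAC against DMSO, from -0.64 to 0.58 for BMP2, -0.47 to 0.22 for GREM1, -0.12 to 0.41 for NOG, -0.12 to 0.18 for CHRD, -0.055 to 0.22 for NODAL and -0.64 to 0.503 for LEFTY1. In UNC against DMSO they ran from -0.54 to 0.23 for BMP2, -0.20 to 0.18 for NOG and, with its paired call, -0.27 to 0.76 for LEFTY1, and in PROTAC against UNC from -0.48 to 0.67 for BMP2, -0.15 to 0.35 for NOG and -0.98 to 0.36 for LEFTY1.

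Reversed signs came from values that were not called. CHRD in PROTAC against DMSO, at -0.00073 by group, was at 0.001227 with RLE, 0.002150 with DESeq2, 0.008594 with limma-voom, 0.004409 with the block, 0.006686 with block and RLE, 0.005088 with block and DESeq2 and 0.007442 with block and limma-voom. BMP2 in PROTAC against DMSO, at 0.02 by group, was at -0.38 with limma-voom, -0.11 with the block, -0.10 with block and RLE, -0.13 with block and library size or upper quartile, -0.11 with block and DESeq2 and -0.14 with block and limma-voom, and in PROTAC against UNC it was at -0.27 with limma-voom. LEFTY1 in PROTAC against DMSO was at -0.0119 and -0.00601 with the block and library size or upper-quartile scaling.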
